A study of Arabidopsis thaliana with 36 samples.

Results

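The tunicamycin (Tm) responses of 2 Arabidopsis thaliana double mutants were compared with each other. The bzip28/60 seedlings lack bZIP28 and bZIP60 by their labels, so bZIP17 is the factor of the 3 that remains. The bzip17/28 seedlings lack bZIP17 and bZIP28, so bZIP60 remains. By their labels both genotypes, and so every group, carry the bZIP28 knockout. The comparison takes 12 of the 36 libraries of the series, chosen by genotype and treatment, with 3 libraries each of bzip28/60 mock, bzip28/60 Tm, bzip17/28 mock and bzip17/28 Tm. Whole seedlings, 12 days old, were soaked for 6 h in water with 5 µg/ml Tm or with the same volume of its solvent DMSO (mock), and mRNA was sequenced from the 3' end. The labels state neither the alleles of the double knockouts nor whether repeats were separate cultures, so the p-values rest on a spread between libraries that may be technical. No wild type enters the comparison. The measure reported is the interaction, the Tm response of bzip28/60 minus the Tm response of bzip17/28 on the log2 scale. A negative value means that the gene responded more strongly upward, or less strongly downward, in bzip17/28.

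Tm blocks the first step of N-linked glycosylation, so that glycoproteins misfold in the endoplasmic reticulum (ER) and the unfolded protein response (UPR) is switched on. In Arabidopsis, bZIP60 becomes active when the ER sensor IRE1 splices its mRNA, so that the protein made from it lacks its membrane anchor. bZIP17 and bZIP28 are made as membrane proteins, move from the ER to the Golgi and are cut there by the proteases S1P and S2P, which frees their transcription factor domain. bZIP28 and bZIP60 are known as the main activators of ER chaperone genes under Tm, and bZIP17 is best known for salt stress and for root growth together with bZIP28.

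Transcripts of the 3 knocked-out genes were examined before any response. Levels are counts scaled to library size with TMM factors and given as CPM. BZIP60 (AT1G42990) had 36.4, 33.5 and 29.3 CPM in the libraries of bzip28/60 mock, and 31.9, 33.3 and 30.9 CPM after Tm. The corresponding bzip17/28 values were 230, 240 and 252 CPM for mock and 1880, 1623 and 1845 CPM for Tm. Where BZIP60 was intact its transcript rose by 2.89 ± 0.13 (log2 fold change ± standard error, edgeR adjusted p = 3.86e-21), and in bzip28/60 the Tm libraries lay within the range of mock (-0.05 ± 0.16, adjusted p = 0.967). BZIP17 (AT2G40950) had 48 counts over the 3 libraries of bzip28/60 mock and 82 in Tm, against 4 and 7 in bzip17/28. BZIP28 (AT3G10800) is knocked out in both genotypes by their labels, and its counts differed between them, with 2 and 1 in bzip17/28 mock and Tm and 78 and 73 in bzip28/60. In CPM it stood between 8.95 and 14.6 in the 6 libraries labelled bzip28/60, and at 21.3, 29.0 and 23.4 in 3 mock libraries of the wild type (WT). The BZIP28 transcript was thus present in the libraries labelled bzip28/60, in each of them below each WT mock library, which goes against a loss of the transcript, and 3' reads do not check a knockout whose lesion lies upstream. Genotype names below are those of the labels, and every direction drawn from bzip28/60 rests on its label. The 12 libraries held 2068065 to 2810235 assigned counts (median 2316490). The spread between repeats, as a coefficient of biological variation, was 9.1% in bzip28/60 mock, 5.84% in bzip28/60 Tm, 5.59% in bzip17/28 mock and 12.9% in bzip17/28 Tm. In WT Tm, which enters only the pooled estimate of spread, it was 28.2%. Both leaf and root genes of the labelled whole seedlings were measured, with 14 of 17 photosynthesis genes and 12 of 15 root genes past the filter on low counts.

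Of 10480 genes tested across the whole table, 258 (2.46%) had an interaction at an adjusted p under 0.05 in edgeR's quasi-likelihood test. The Tm response was lower in bzip28/60 than in bzip17/28 for 134 genes (1.28%) and higher for 124 genes (1.18%). Fitted on the 12 libraries alone, the test called 628 genes, 253 lower and 375 higher, among them all 258. The response in each mutant is given to show what the interaction is made of. Both responses share its libraries and are no separate support. Of the 134 lower genes, 114 rose with Tm only in bzip17/28, 14 rose in both mutants, 3 passed in neither, and 3 fell in bzip28/60. Their median response was 1.74 in bzip17/28 and 0.04 in bzip28/60. Of the 124 higher genes, 92 fell only in bzip17/28, 12 fell in both, 11 rose only in bzip28/60, 2 rose in both, 2 rose in bzip28/60 while they fell in bzip17/28, and 5 passed in neither. Their median response was -1.01 in bzip17/28 and 0.04 in bzip28/60, beside a median of 0.02 and 0.01 over all genes tested. Most of the interaction, in both directions, was thus a change measured in bzip17/28 that did not pass in bzip28/60. In the separate tests, 481 genes rose (4.59%) and 734 fell (7.0%) with Tm in bzip17/28, against 93 that rose (0.887%) and 161 that fell (1.54%) in bzip28/60. The 254 calls in bzip28/60 became 136 without its Tm library 1, 160 without its mock library 1 and 168 without its Tm library 2, and 603 in the fit of the 12 libraries. With library size as the only scaling, the split in bzip28/60 was 133 up and 119 down.

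**Figure D1:**
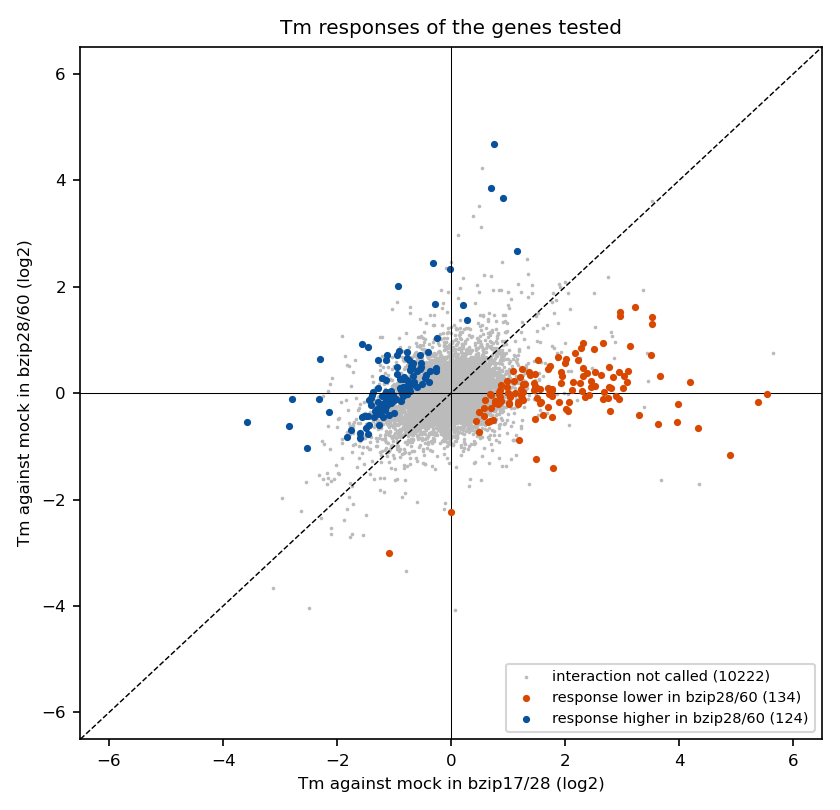
Log2 response to Tm in bzip17/28 (horizontal axis) and in bzip28/60 (vertical axis) for the 10480 genes tested, with 1 point per gene and the line of equal response dashed. The 134 genes with a lower response in bzip28/60 (orange) lie mostly to the right along the horizontal line, and the 124 with a higher response (blue) mostly to the left of it or above it.

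Genes known as UPR targets rose in bzip17/28, and most of them had a lower response in bzip28/60. Of a panel of 24 UPR genes, 20 passed the filter on low counts. The filter needs counts in only some of the 36 libraries, so a gene with few counts in bzip28/60 can pass it through other groups. SHD, TIN1, NAC103, SEC31A, SARA1A and AT3G60540 passed in that way. Their place among the 20 depends on their level outside bzip28/60, in bzip17/28 Tm among others. The counts below are thus not independent of the filter. 16 of those 20 had a lower response in bzip28/60 and 0 a higher one, where 1.28% of all genes were lower. The median interaction was -2.44, against 0.00 over all genes tested. With Tm, 19 of the 20 rose in bzip17/28 and 3 in bzip28/60. Summed over the 20 genes, the bzip28/60 libraries held 1200 to 1221 CPM for mock and 1513 to 1567 CPM for Tm, and the bzip17/28 libraries 1524 to 1675 CPM for mock and 9479 to 10045 CPM for Tm. DESeq2 also called 16 lower and 0 higher, and 0 were higher at an unadjusted p under 0.05. The 4 genes that were not tested, BIP2, BIP3, ERDJ3A and NAC062, had 0, 0, 1 and 10 counts over the 12 libraries, which does not show that they were not expressed, and the split of reads between BIP2 and its near copy BIP1 is uncertain. BIP2 has 3 transcript models and each of the others 2, and reads shared by the models of a gene were not counted. The part of this in the low counts was not tested.

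BIP1 (AT5G28540), an ER Hsp70 chaperone, was one of the 3 panel genes that rose in bzip28/60. It stood at 116, 108 and 115 CPM in mock and at 189, 225 and 213 CPM in Tm there, and at 112, 112 and 114 CPM in mock and 959, 1066 and 933 CPM in Tm in bzip17/28. The mock libraries of the 2 genotypes overlapped, and the Tm libraries were apart, with every bzip17/28 library above every bzip28/60 library. BIP1 rose by 0.89 ± 0.14 in bzip28/60 (adjusted p = 3.61e-05) and by 3.13 ± 0.15 in bzip17/28 (adjusted p = 1.56e-20), an interaction of -2.25 ± 0.20 (adjusted p = 3.35e-11). CNX1 (AT5G61790), the calnexin that holds monoglucosylated glycoproteins in the ER, went from 153, 178 and 159 to 277, 263 and 264 CPM in bzip28/60, and from 146, 164 and 182 to 1764, 1859 and 1988 CPM in bzip17/28. Its rise was 0.72 ± 0.15 in bzip28/60 (adjusted p = 0.00191) and 3.51 ± 0.15 in bzip17/28, and its interaction was -2.79 ± 0.21 (adjusted p = 2.83e-13). The third gene, UTR1 (AT2G02810), carries UDP-glucose into the ER for the calnexin cycle. It went from 10.2, 9.22 and 15.5 to 33.9, 34.2 and 33.1 CPM in bzip28/60, a rise of 1.52 ± 0.23 (adjusted p = 1.05e-05), and from 15.1, 16.9 and 16.5 to 119, 132 and 129 CPM in bzip17/28, a rise of 2.96 ± 0.19. The UTR1 interaction of -1.44 ± 0.31 (adjusted p = 0.00323) missed the threshold without bzip28/60 mock 3 (-1.18, adjusted p = 0.0629). UTR3 (AT1G14360), a relative of UTR1 that overlaps AT1G14350 on the genome, had an interaction of -1.71 ± 0.40 (adjusted p = 0.00939), which also missed it without bzip28/60 mock 3 (adjusted p = 0.0589).

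Among 29 ER chaperones and folding enzymes, 19 were tested. Of these, 13 had a lower response in bzip28/60 and 0 a higher one, beside 1.28% and 1.18% of all genes. The median interaction was -1.92. This list and several lists below share genes with the UPR panel, so their counts are not separate support. Protein disulfide isomerases, which form and rearrange disulfide bonds in folding proteins, held the 4 most negative interactions of the list. PDIL1-2 (AT1G77510) stood in bzip28/60 at 23.1, 24.7 and 23.0 CPM for mock and at 26.8, 21.5 and 26.7 CPM for Tm, and went from 84.2, 87.8 and 80.1 to 682, 737 and 623 CPM in bzip17/28. Its bzip28/60 mock and Tm libraries overlapped, its interaction was -2.93 ± 0.27 (adjusted p = 8.22e-11), and it already differed under mock, by -1.83 ± 0.19 (bzip28/60 against bzip17/28, adjusted p = 1.54e-09). PDIL2-2 (AT1G04980) showed no such gap under mock (0.18 ± 0.24, adjusted p = 0.732). It stood between 11.6 and 19.7 CPM in the 6 libraries of bzip28/60, and went from 12.0, 12.4 and 18.3 to 235, 276 and 267 CPM in bzip17/28, an interaction of -3.99 ± 0.31 (adjusted p = 1.12e-12). PDIL2-3 had an interaction of -2.84 ± 0.21 and PDIL1-1 of -1.35 ± 0.21. PDIL1-3 (AT3G54960), a gene with 2 transcript models whose shared reads were not counted, moved in opposite directions. It fell in bzip28/60 from 22.7, 25.2 and 26.8 to 8.56, 8.9 and 10.6 CPM (-1.41 ± 0.24, adjusted p = 0.000152) and rose in bzip17/28 from 12.9, 14.4 and 16.5 to 40.5, 60.3 and 50.1 CPM (1.78 ± 0.21, adjusted p = 1.03e-08). PDIL1-4, a close relative, passed neither test (-0.69 and -0.77). ERO1, the oxidase that passes oxidising equivalents to these enzymes, had an interaction of -2.70 ± 0.58 (adjusted p = 0.00316), lost without bzip28/60 mock 1 (-2.29, adjusted p = 0.12), and ERO2 had -0.32 (not called).

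Cochaperones of BiP with an interaction were ERDJ3B (-2.43 ± 0.22), ERDJ2B (-2.05 ± 0.40), P58IPK (-1.33 ± 0.36, adjusted p = 0.0277, lost in each of 6 fits that left out 1 library, namely bzip28/60 mock 3, Tm 1 and Tm 3 and bzip17/28 mock 1, mock 2 and Tm 3, up to adjusted p = 0.101) and SDF2 (-1.05 ± 0.23). The calreticulins bind glycoproteins as calnexin does. CRT1b (AT1G09210) rose only modestly in bzip17/28, from 55.4, 52.3 and 46.1 to 83.9, 101 and 90.9 CPM (0.84 ± 0.18, adjusted p = 0.000739), and stood at 82.9, 64.0 and 69.5 CPM in mock and 70.8, 56.2 and 62.3 CPM in Tm in bzip28/60. Its interaction of -1.03 ± 0.25 (adjusted p = 0.0127) was lost without bzip28/60 mock 1, bzip28/60 Tm 2 or bzip17/28 mock 3 (adjusted p = 0.0688, 0.061 and 0.0563). CRT1a had an interaction of -0.09 and passed no Tm test. SHD, the ER Hsp90, has 2 transcript models, and reads shared by them were not counted. It had 9 and 18 counts in bzip28/60 mock and Tm and 13 and 109 in bzip17/28. It rose in bzip17/28 (2.87 ± 0.38), and its interaction did not pass (-1.92 ± 0.78, adjusted p = 0.255).

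**Figure D2:**
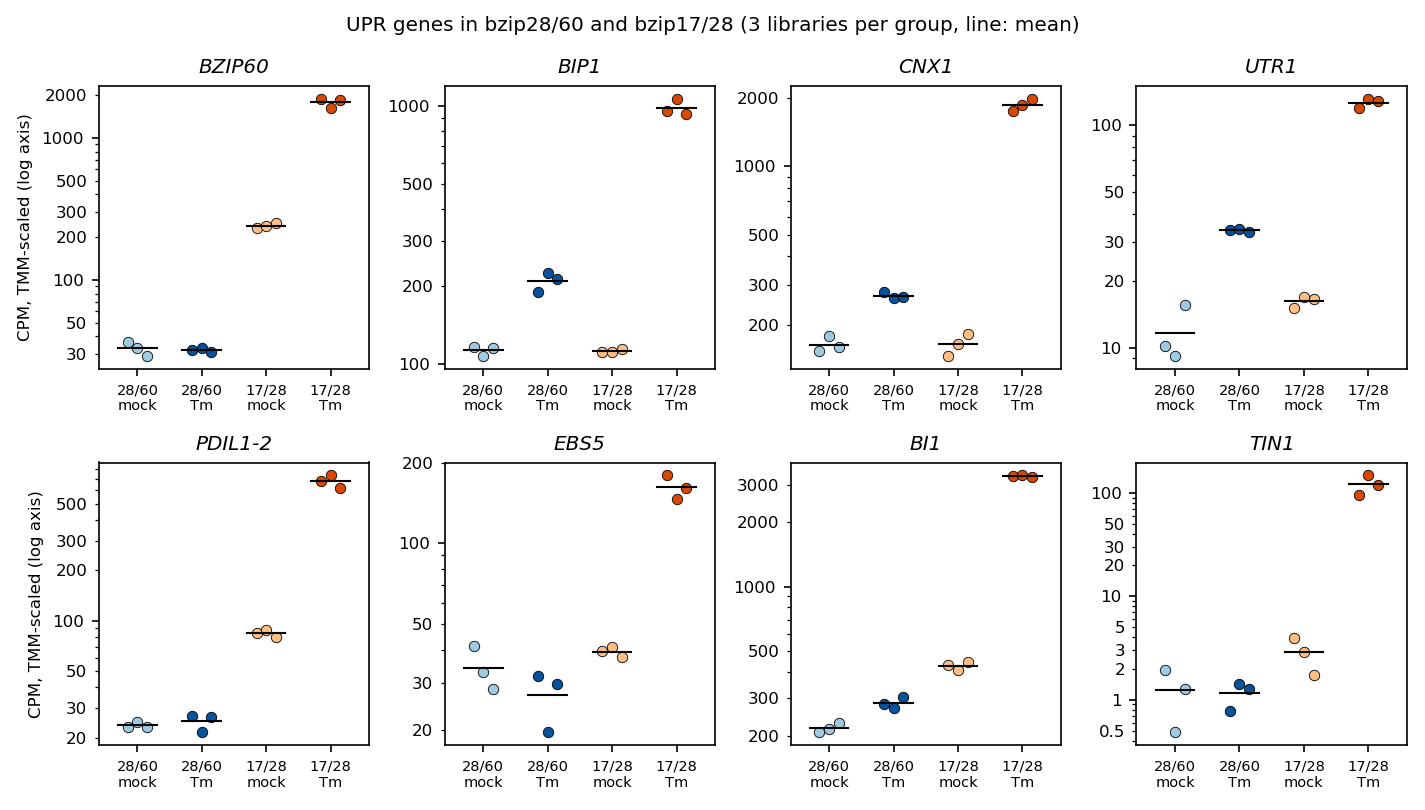
Level (CPM scaled by TMM factors, log axis) of 8 UPR genes in each of the 12 libraries, grouped by genotype and treatment, with 3 points and a line at the mean per group. BIP1, CNX1 and UTR1 rose in both mutants and further in bzip17/28, while BZIP60, PDIL1-2, EBS5 and TIN1 overlapped between mock and Tm in bzip28/60 and rose in bzip17/28.

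Genes that dispose of misfolded proteins showed the same direction, and EBS5 and OS9 of this list are also in the UPR panel. Of 14 ER-associated degradation genes, 9 were tested. Of these, 6 had a lower response in bzip28/60 and 0 a higher one, beside 1.28% and 1.18% of all genes. With Tm in bzip28/60, 0 of the 9 changed in edgeR (1 at an unadjusted p under 0.05, and 0 in DESeq2). As 0.887% of all genes rose and 1.54% fell there, 0 of 9 is no result about this list. EBS5 (AT1G18260), which anchors the HRD1 ubiquitin ligase complex, stood at 41.5, 33.0 and 28.5 CPM in mock and at 31.9, 19.7 and 29.7 CPM in Tm in bzip28/60, and went from 39.4, 40.8 and 37.4 to 179, 146 and 160 CPM in bzip17/28. Its interaction was -2.38 ± 0.24 (adjusted p = 6.95e-10). OS9, the lectin that recognises trimmed glycans for the same complex, had an interaction of -2.46 ± 0.39, the derlins DER2.1 and DER2.2 had -2.23 ± 0.20 and -1.12 ± 0.25, and the ubiquitin conjugating enzyme UBC32 had -1.08 ± 0.21. HRD1A itself (-0.45) and CDC48 (0.07), the ATPase that pulls substrates out of the membrane, had none. Of 7 tested autophagy genes 1 had an interaction, beside 2.46% of all genes. That was NBR1 (AT4G24690), a cargo receptor of selective autophagy whose gene overlaps AT4G24700 (-1.21 ± 0.17, adjusted p = 5.02e-06). It went from 375, 340 and 375 to 539, 510 and 507 CPM in bzip28/60 (0.51 ± 0.12, adjusted p = 0.0103, lost without bzip28/60 mock 2 or Tm 1, up to adjusted p = 0.0849) and from 475, 468 and 491 to 1768, 1517 and 1454 CPM in bzip17/28 (1.72 ± 0.12).

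Interactions were also called among genes of protein entry into the ER, glycosylation and export. Over all genes, 1.28% had a lower response in bzip28/60, and 4.59% rose and 7.0% fell with Tm in bzip17/28. Of 14 tested genes of the translocon and signal peptidase, 3 had a lower response in bzip28/60: AT5G50460, a Sec61 gamma subunit (-1.37 ± 0.17), and the signal peptidase subunits AT3G05230 (-2.28 ± 0.44) and AT5G27430 (-2.03 ± 0.30). Their genomic neighbours AT3G05240 and AT5G27440 overlap the 2 signal peptidase genes, and reads of such pairs cannot be told apart here. AT5G50460 was also a gene that rose in bzip28/60 (0.65 ± 0.12, adjusted p = 0.000531). Of 10 tested N-glycosylation genes, 3 were lower, UTR1, UTR3 and GPT (AT2G41490), and all 3 are also in the UPR panel. GPT is the enzyme that Tm inhibits. It stood between 14.8 and 22.5 CPM in the 6 libraries of bzip28/60 and went from 12.4, 13.6 and 9.14 to 42.9, 53.4 and 55.6 CPM in bzip17/28, an interaction of -2.05 ± 0.35 (adjusted p = 0.000116, in a gene that overlaps AT2G41500). The 5 tested members of the oligosaccharyltransferase, which transfers the glycan, gave interactions of -0.36 to -0.66, and 0 passed. With 2.46% of all genes called, 0 of 5 is no result about them. Of 16 tested genes of the COPII coat and ER to Golgi transport, 6 were lower, with a median interaction of -0.69, while 9 rose and 1 fell with Tm in bzip17/28. SEC31A, SARA1A and ARFA1D of this list had few counts in bzip28/60 and passed the filter through other groups. These counts and the median are thus not independent of the filter. SAR1B, the GTPase that starts COPII budding, had -1.83 ± 0.20, the cargo receptors p24delta5 and p24beta2 had -1.73 ± 0.25 and -1.22 ± 0.23, and the SNARE SEC22 had -1.20 ± 0.22. ARFA1D (AT1G70490) is an ARF GTPase whose gene has 7 transcript models and overlaps AT1G70480. It had 27 and 17 counts over the 3 libraries of bzip28/60 mock and Tm and 117 and 2577 counts in bzip17/28 (-4.99 ± 0.62, adjusted p = 2.86e-07). The transport genes SAR2, ERD2B and AT3G62560, with interactions of -0.17, -0.06 and 0.02, were among the 10 that did not pass.

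Several genes were at or near the detection limit in bzip28/60 in both treatments, so that their fitted fold changes depend on very few counts. Reads shared by the transcript models of a gene were not counted, and of these genes SEC31A and AT3G60540 have 3 models each. NAC103 (AT5G64060), a NAC transcription factor that acts downstream of bZIP60, had 5 counts over 3 libraries in bzip28/60 mock and 2 in Tm, against 24 and 791 in bzip17/28. Under Tm its level in bzip17/28 was 364 times that in bzip28/60 (95% counting interval 100 to 3010, for counting error only). The interaction passed (adjusted p = 0.0106) but not without bzip28/60 mock 1 (adjusted p = 0.976), the one bzip28/60 mock library with counts. SEC31A (AT1G18830), a COPII coat protein, had 6 and 4 counts in bzip28/60 and 218 and 3737 in bzip17/28 (adjusted p = 0.00419, and 0.309 without bzip28/60 mock 3). It also differed under mock, at 33.7, 28.8 and 31.3 CPM in bzip17/28 against 0.78, 0 and 1.68 CPM in bzip28/60. TIN1 (AT5G64510), an ER protein named for its induction by Tm, had 9 and 8 counts in bzip28/60 and 20 and 942 in bzip17/28, with an interaction of -5.54 ± 0.90 (adjusted p = 5.33e-05) that passed in every fit with 1 library left out. SARA1A (AT1G09180), a SAR1 GTPase, had 1 and 2 counts in bzip28/60 and 10 and 575 in bzip17/28, where it rose by 5.64 ± 0.31. Its interaction did not pass (adjusted p = 0.38) although the Tm libraries of the 2 genotypes were far apart, 264 times (counting interval 72.8 to 2190). The Sec61 beta gene AT3G60540 gave the same picture, with 1 and 2 against 14 and 173 counts, a ratio under Tm of 79.5 (counting interval 21.7 to 662) and an adjusted p of 0.811. These ratios under Tm also hold any difference under mock and do not measure the difference in response. Under mock bzip28/60 differed from bzip17/28 by -2.18 ± 0.73 for NAC103 (adjusted p = 0.0411) and -2.865 ± 0.95 for SARA1A (adjusted p = 0.038). For AT3G60540 the difference of -3.33 ± 1.20 did not pass (adjusted p = 0.0614). These 3 results changed in 3, 6 and 5 alternatives. For SEC31A, given without a ratio, the difference was -5.09 ± 0.37 (adjusted p = 1.79e-13).

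Regulators were divided. Of 8 tested UPR regulators 4 were lower, namely BZIP60, NAC103, TIN1 and BI1, and the others were BZIP17, BZIP28, IRE1A (-0.02) and BAG7. BZIP60, BZIP17 and BZIP28 are the genes of the genotypes, so their values are set by the design. Of the other 5, 3 were lower, beside 1.28% of all genes. These 3 are also in the UPR panel. NAC103 and TIN1 had few counts in bzip28/60 and passed the filter through other groups, so this count is not independent of the filter. BI1 (AT5G47120), a suppressor of cell death in the ER membrane, stood at 208, 215 and 229 CPM in bzip28/60 mock and at 282, 269 and 303 CPM in Tm, and went from 428, 406 and 444 to 3297, 3318 and 3243 CPM in bzip17/28. In bzip28/60 the mock and Tm libraries did not overlap, but the difference of 0.39 ± 0.12 did not pass (adjusted p = 0.0897). It passed with library size alone, DESeq2, the 12 libraries alone or without the WT Tm libraries. The interaction of BI1 was -2.56 ± 0.17 (adjusted p = 4.19e-14). BAG7 (AT5G62390), a BAG cochaperone of the ER, was the 1 panel gene that did not rise in bzip17/28. Its bzip28/60 libraries held 374, 386 and 355 CPM for mock and 428, 402 and 414 CPM for Tm, and its bzip17/28 libraries 411, 516 and 485 CPM for mock and 532, 483 and 541 CPM for Tm, an interaction of 0.02 ± 0.18 (adjusted p = 0.987).

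**Figure D3:**
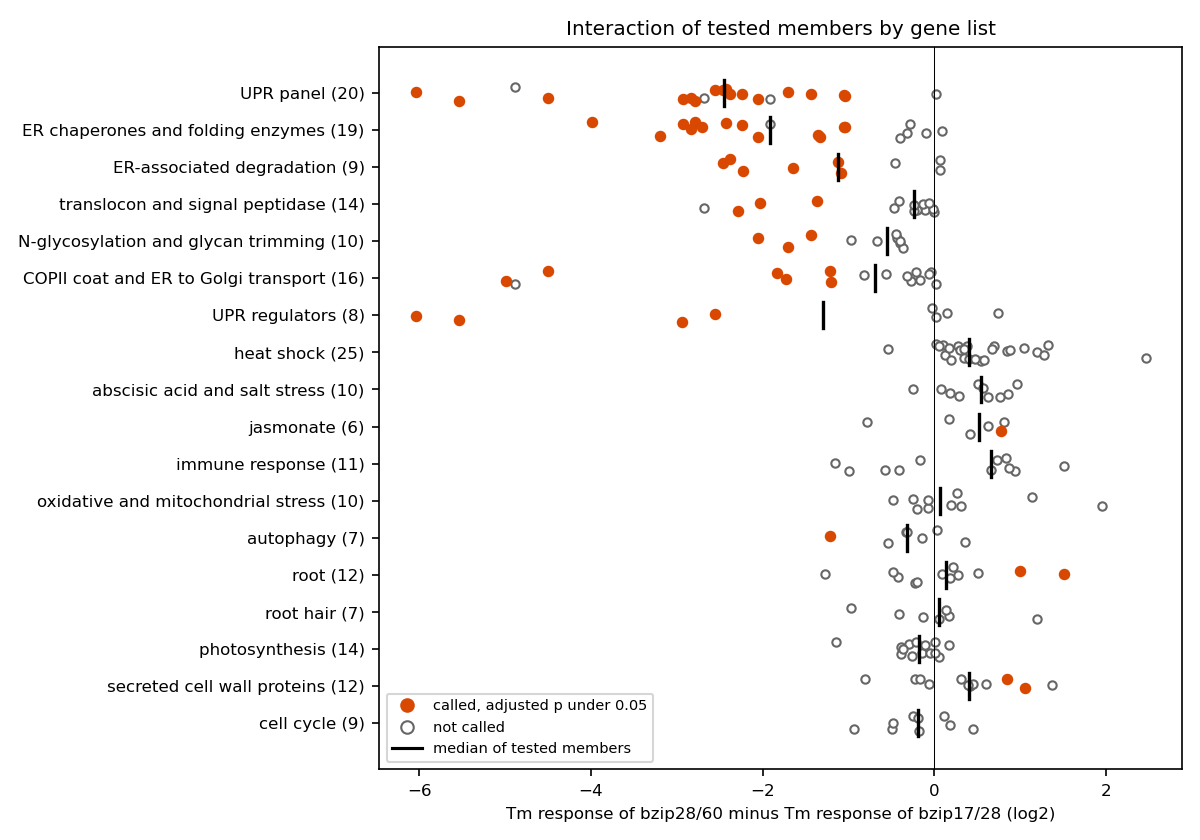
Interaction (log2) of the tested members of each gene list, with the number tested in brackets, filled orange points for members at an adjusted p under 0.05, open points for the others, and a vertical bar at the median. The 7 lists of ER protein folding, degradation, entry, glycosylation, transport and regulation reach far to the left, and the 11 lists below them stay mostly within 1.5 of 0.

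Promoters of the genes with the lowest responses in bzip28/60 were read for the DNA elements known from the plant UPR. A promoter is here the 250 bases before to 50 bases after the annotated gene start in RefSeq TAIR10.1. Elements were searched on both strands: ERSE-I (CCAAT, then after 10 bases CACG), ERSE-II (ATTGG, then after 1 base CCACG), the UPRE core TGACGTG and the G-box CACGTG. ERSE-I can overlap a G-box or a UPRE core. Of the 134 genes with a lower response, 132 had a promoter. ERSE-I was found in 25 of these (18.9%), the UPRE core in 25 (18.9%) and the G-box in 34 (25.8%), with 58 (43.9%) holding at least 1 of the 3, against 8 (6.56%) of the higher-response promoters and 1269 (12.5%) of the tested ones. Of the 122 promoters of genes with a higher response, 1 held ERSE-I (0.82%), 3 the UPRE core (2.46%) and 4 the G-box (3.28%). Among the 10164 promoters of tested genes the shares were 1.25%, 3.96% and 8.83%, and among all 27431 protein-coding promoters 0.849%, 3.41% and 7.68%. ERSE-II was in 4 promoters of tested genes and in 0 of the called ones. Of the 6 panel genes with the most negative called interaction, NAC103 and PDIL2-3 held none of these elements in the window, and the other 4 did. Their matches are shown because the same genes carry the result. The strand printed is that of the gene, 5' to 3', with the first base of the sequence at 250 bases before the start, and capitals mark the matches. TIN1 is chr5:25784154-25784403 (plus strand), with UPRE cores on the opposite strand that begin 132 and 68 bases before the start. SEC31A is chr1:6488983-6489232 (plus strand), with 1 UPRE core 111 bases before it. PDIL1-2 is chr1:29126398-29126647 (plus strand), with ERSE-I from 64 bases before it, overlapping a G-box.
TIN1: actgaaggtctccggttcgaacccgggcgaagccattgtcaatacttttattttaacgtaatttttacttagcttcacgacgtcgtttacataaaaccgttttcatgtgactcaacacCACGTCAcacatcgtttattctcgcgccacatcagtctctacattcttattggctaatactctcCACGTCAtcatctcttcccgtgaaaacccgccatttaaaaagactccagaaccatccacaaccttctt
SEC31A: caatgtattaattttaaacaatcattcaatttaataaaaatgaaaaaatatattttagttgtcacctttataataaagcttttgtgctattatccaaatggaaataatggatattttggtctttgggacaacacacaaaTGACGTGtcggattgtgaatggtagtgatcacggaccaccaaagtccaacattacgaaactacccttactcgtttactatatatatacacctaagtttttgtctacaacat
PDIL1-2: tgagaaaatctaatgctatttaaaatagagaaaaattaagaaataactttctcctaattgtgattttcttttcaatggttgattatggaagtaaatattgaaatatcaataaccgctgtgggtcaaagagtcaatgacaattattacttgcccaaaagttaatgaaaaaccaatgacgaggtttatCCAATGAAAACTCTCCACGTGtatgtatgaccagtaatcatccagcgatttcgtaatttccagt
CNX1: TGACGTGGCCTGTTATGATTGG
The fourth gene, CNX1, holds its UPRE core and ERSE-I after the annotated start, at chr5:24829861-24829882 (minus strand), overlapping each other in the 22 bases printed, from base 19 to base 40 of the transcript. A match describes these letters only, and a promoter without one says nothing of whether a factor binds there.

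**Figure D4:**
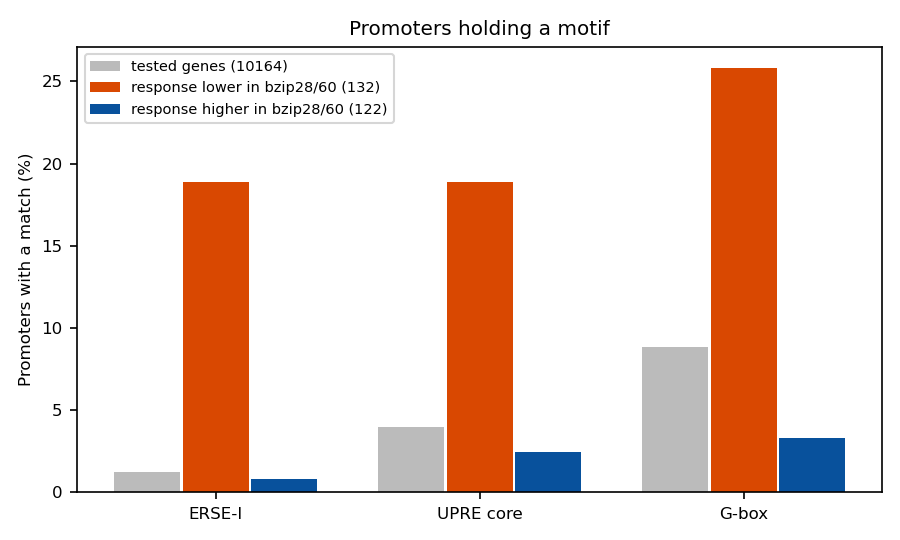
Share (%) of promoters that hold ERSE-I, the UPRE core or the G-box, for all tested genes with a promoter (10164, grey), genes with a lower Tm response in bzip28/60 (132, orange) and genes with a higher one (122, blue). The lower group had 18.9%, 18.9% and 25.8%, the tested genes 1.25%, 3.96% and 8.83%.

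Of the 124 genes with a higher response in bzip28/60, 106 fell in bzip17/28 and 15 rose in bzip28/60, with 2 counted in both. Genes that fell in bzip17/28 come first. CYP81D11 (AT3G28740), a cytochrome P450 whose gene overlaps AT3G28730, fell from 56.3, 75.4 and 83.1 to 25.2, 29.4 and 18.2 CPM in bzip17/28 (-1.57 ± 0.28), and stood at 27.4, 18.4 and 15.5 CPM in mock and 41.2, 40.7 and 34.7 CPM in Tm in bzip28/60 (0.92 ± 0.30, adjusted p = 0.107). Its interaction was 2.49 ± 0.41 (adjusted p = 7.53e-05). Secreted cell wall proteins pass through the ER. Of 12 tested, 2 had a higher response in bzip28/60 and 8 fell in bzip17/28 against 2 in bzip28/60, with medians of -0.83 and -0.40. Over all genes 1.18% were higher, 7.0% fell in bzip17/28 and 1.54% fell in bzip28/60. DESeq2, the fit of the 12 libraries and the fit without the WT Tm libraries each also called 1 wall gene with a lower response. FLA8, a fasciclin-like arabinogalactan protein, stood at 293, 240 and 278 CPM in mock and 193, 208 and 200 CPM in Tm in bzip28/60, and went from 218, 246 and 241 to 91.8, 69.8 and 89.2 CPM in bzip17/28. Its interaction of 1.06 ± 0.27 (adjusted p = 0.0186) was lost without bzip28/60 mock 2, bzip28/60 Tm 2 or bzip17/28 Tm 2, up to adjusted p = 0.0763. PME3, a pectin methylesterase, fell in both mutants, from 987, 1128 and 1259 to 699, 703 and 604 CPM in bzip28/60 (-0.75 ± 0.15) and from 1011, 1021 and 1164 to 338, 375 and 340 CPM in bzip17/28 (-1.60 ± 0.15). Its interaction of 0.85 ± 0.21 (adjusted p = 0.0153) was lost without bzip28/60 mock 1, bzip28/60 Tm 2 or bzip17/28 mock 3, up to adjusted p = 0.0758. The defensin-like gene PDF1.4 fell in bzip17/28 (-3.59 ± 0.37), from 256 to 23 counts, and had 25 and 17 counts in bzip28/60. Its interaction of 3.04 ± 0.72 (adjusted p = 0.00996) was lost without bzip28/60 Tm 3 (adjusted p = 0.176).

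Of the 15 genes that rose in bzip28/60, 13 were lower there than in bzip17/28 under mock, and 2 did not differ at the threshold. The mock libraries of bzip28/60 enter both measures. AT1G21525, a gene of unknown product, stood at 1.56, 3.88 and 0.84 CPM in bzip28/60 mock and 24.1, 30.9 and 23.3 CPM in Tm. The bzip17/28 libraries gave 19.9, 21.4 and 20.5 CPM for mock and 45.7, 35.9 and 35.3 CPM for Tm. The interaction was 2.75 ± 0.49 (adjusted p = 0.000238), and the level under mock differed by -3.32 ± 0.40 (bzip28/60 against bzip17/28). BAP2 (AT2G45760), a BON-association protein that restrains cell death, had 7 and 109 counts in bzip28/60 mock and Tm and 114 and 205 in bzip17/28, an interaction of 3.15 ± 0.69 (adjusted p = 0.00408). PUB54 (AT1G01680), a U-box protein, had 2 and 63 counts in bzip28/60, a ratio of 31.2 (95% counting interval 8.3 to 264), and 44 and 81 counts in bzip17/28. The WRKY factor WRKY18, whose gene has 3 transcript models, had 8 and 46 counts in bzip28/60 and 53 and 47 in bzip17/28. Its interaction of 2.77 ± 0.70 (adjusted p = 0.0185) was lost in 4 fits with 1 library left out. These were the fits without bzip28/60 mock 1, mock 2 or Tm 1 or bzip17/28 mock 3, up to adjusted p = 0.105. After Tm the 2 genotypes differed by -0.57 ± 0.24 for AT1G21525, -0.79 ± 0.31 for BAP2, -0.26 ± 0.34 for PUB54 and 0.09 ± 0.41 for WRKY18 (bzip28/60 against bzip17/28), and 0 of these 4 differences passed. These 4 are not all of the 15. RBCS1B (AT5G38430), a Rubisco small subunit gene outside the photosynthesis list with 2 transcript models, is another of the 15. Its interaction was 2.96 ± 0.69 (adjusted p = 0.00888, lost without bzip28/60 mock 1, adjusted p = 0.0509). After Tm it was higher in bzip28/60 by 1.36 ± 0.45 (adjusted p = 0.0279), a call lost in 5 alternatives. The BAP2 difference passed without the low count filter, in the fit of the 12 libraries, without bzip28/60 mock 2 and without the WT Tm libraries (adjusted p down to 0.00793), and that of AT1G21525 in the fit of the 12 libraries (adjusted p = 0.0141). CSLE1 (AT1G55850), a cellulose synthase-like protein, and MYB13 (AT1G06180), a MYB transcription factor, passed in opposite directions. CSLE1 went from 71.6, 80.5 and 83.8 to 114, 115 and 103 CPM in bzip28/60 and from 79.3, 102 and 105 to 55.0, 48.8 and 45.6 CPM in bzip17/28. Its interaction was 1.44 ± 0.20 (adjusted p = 3.33e-06), but its rise in bzip28/60 (adjusted p = 0.0408) was lost without any 1 of the 6 bzip28/60 libraries, bzip17/28 mock 2 or bzip17/28 Tm 3, up to adjusted p = 0.246. After Tm CSLE1 was higher in bzip28/60 than in bzip17/28 by 1.16 ± 0.14 (adjusted p = 3.79e-08). For MYB13 that difference was 0.51 ± 0.19 (adjusted p = 0.0521) and passed only in 3 alternatives. MYB13 went from 13.7, 15.5 and 19.7 to 31.5, 24.8 and 26.7 CPM in bzip28/60 and from 31.5, 35.4 and 33.5 to 18.2, 22.5 and 17.84 CPM in bzip17/28, an interaction of 1.54 ± 0.27 (adjusted p = 0.000197). Its rise in bzip28/60 (adjusted p = 0.0192) was lost without bzip28/60 mock 1, mock 2 or Tm 1, up to adjusted p = 0.182.

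**Figure D5:**
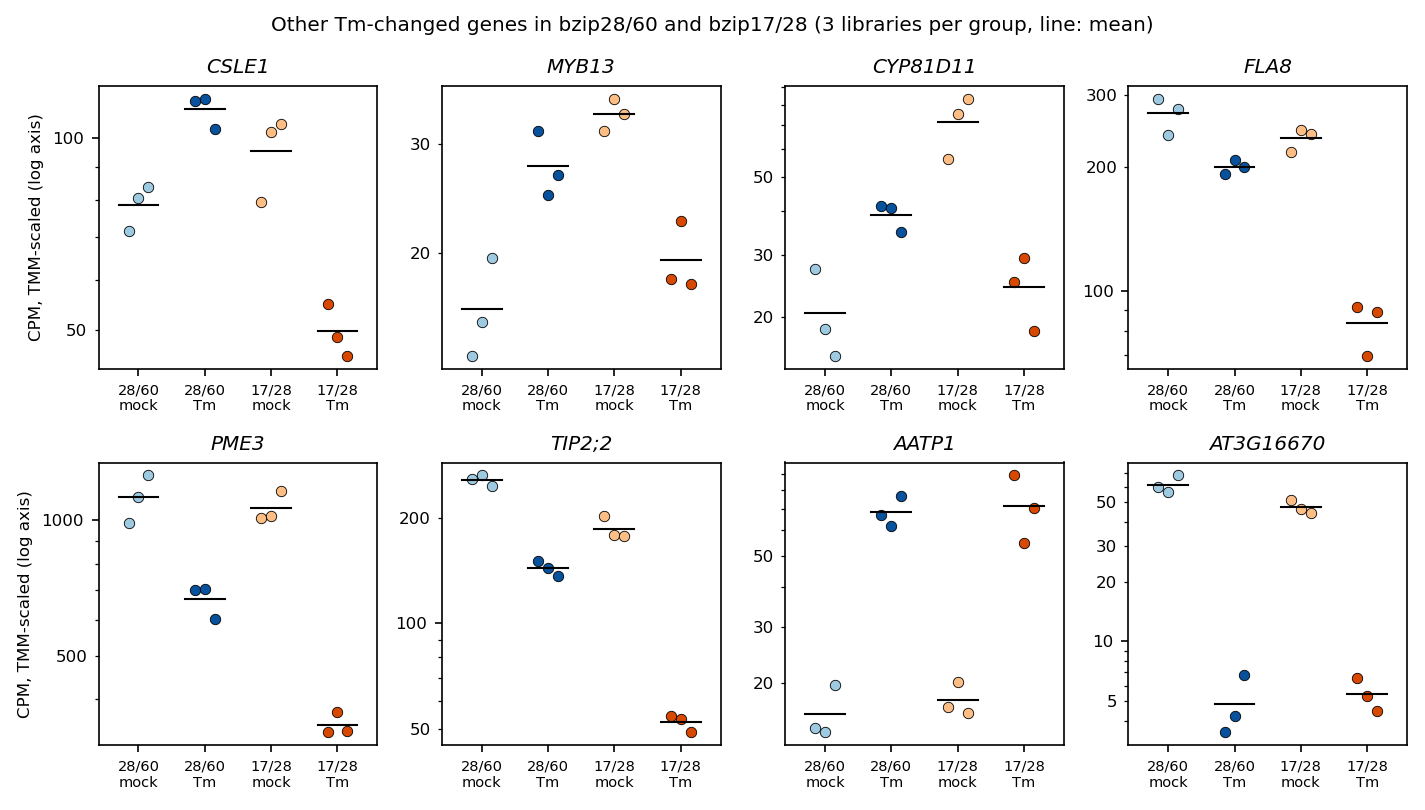
Level (CPM scaled by TMM factors, log axis) in each of the 12 libraries of 6 genes with a higher response in bzip28/60 and of AATP1 and AT3G16670, which changed in both mutants, with 3 points and a line at the mean per group. CSLE1 and MYB13 rose in bzip28/60 and fell in bzip17/28, FLA8, PME3 and TIP2;2 fell further in bzip17/28, and AATP1 rose about equally in both.

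Tm also changed some genes in both mutants without an interaction that passed. AATP1 (AT5G40010), an AAA-ATPase, rose from 14.5, 14.1 and 19.7 to 66.9, 61.8 and 76.7 CPM in bzip28/60 (2.08 ± 0.21, adjusted p = 3.78e-09) and from 16.8, 20.2 and 16.1 to 89.0, 54.5 and 70.3 CPM in bzip17/28 (2.00 ± 0.21), an interaction of 0.09 ± 0.30 (adjusted p = 0.965). AT3G16670, of a family of pollen allergen and extensin-like proteins, fell from 59.5, 56.3 and 68.3 to 3.5, 4.22 and 6.78 CPM in bzip28/60 (-3.65 ± 0.27) and from 51.4, 46.2 and 44.0 to 6.52, 5.34 and 4.46 CPM in bzip17/28 (-3.12 ± 0.27). Its interaction of -0.53 ± 0.43 did not pass. CYP82C4, a cytochrome P450 of iron-deficient roots, fell by 4.03 ± 0.45 in bzip28/60 and by 2.49 ± 0.62 in bzip17/28 (the latter lost without bzip17/28 mock 1, adjusted p = 0.0834). Its interaction of -1.54 ± 0.97 did not pass. For ZAT11, a zinc finger factor, the 2 mutants were less alike. It had 5 and 47 counts in bzip28/60 and 60 and 95 in bzip17/28. Its rise in bzip28/60 passed (adjusted p = 0.00311) and its interaction did not (2.59 ± 0.78, adjusted p = 0.0685), but it passed in 4 alternatives, including the fit of the 12 libraries. Other large rises in bzip28/60 had interactions above 0 that did not pass. They were 1.20 ± 0.51 for AT1G53620 and 0.90 ± 0.69 for LOX4, which also rose in bzip17/28. AT5G41750 (1.51 ± 0.62) and UGT74E2 (1.96 ± 0.62, called in 6 alternatives) did not pass in bzip17/28. Under mock each gene was lower in bzip28/60 (-3.97 to -1.25, lost for AT1G53620 in 5 alternatives). The rises in bzip28/60 were lost in 6 alternatives for LOX4, 2 for UGT74E2 and 1 for AT5G41750.

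Of 12 tested root genes, 3 fell with Tm in bzip28/60 (1.54% of all genes) and 6 in bzip17/28 (7.0% of all genes), and DESeq2 called 3 and 4 falls. A higher response in bzip28/60 was called for 2 of the 12, beside 1.18% of all genes. In bulk seedlings, fewer cells of a type and less RNA per cell cannot be told apart. The summed level of the root list ran from 469 to 567 CPM in bzip28/60 mock and from 270 to 293 CPM in Tm, and from 419 to 487 CPM in bzip17/28 mock and from 164 to 210 CPM in Tm. FRO2 had 0 counts in the 12 libraries and EIR1 had 1, and the part of root content in the results was not tested. TIP2;2 (AT4G17340), a tonoplast water channel, went from 257, 264 and 245 to 151, 143 and 136 CPM in bzip28/60 (-0.83 ± 0.13) and from 202, 178 and 177 to 54.5, 53.4 and 49.0 CPM in bzip17/28 (-1.83 ± 0.14), an interaction of 1.00 ± 0.20 (adjusted p = 0.00101). TIP2;3 had 1.51 ± 0.43 (adjusted p = 0.0477), which was lost with repeat number as a block (adjusted p = 0.0544) and without any 1 library other than bzip28/60 mock 2 or bzip28/60 Tm 2, up to adjusted p = 0.2351. The summed level of the photosynthesis list was 56637 to 60929 CPM in bzip28/60 mock, above the other 9 libraries, and 50780 to 53226 in bzip28/60 Tm, 49249 to 51169 in bzip17/28 mock and 43874 to 56023 in bzip17/28 Tm. Its part in the results was not tested.

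For the remaining lists the counts of interactions are read against 2.46% of all genes called and 12.2% at an unadjusted p under 0.05, a background at which 0 calls in a short list is no result about the list. In edgeR, 0 of 25 tested heat shock genes passed (3 at an unadjusted p under 0.05, all higher in bzip28/60), 0 of 10 abscisic acid and salt stress genes (2), 0 of 11 immune genes (4), 0 of 10 oxidative and mitochondrial stress genes (2), 0 of 7 root hair genes (1), 0 of 14 photosynthesis genes (4, all lower) and 0 of 9 cell cycle genes (1). DESeq2 called 0 in each of these lists except 1 oxidative stress gene, and the fit of the 12 libraries called 2 heat shock, 1 abscisic acid, 4 immune, 1 oxidative stress and 2 photosynthesis genes. Of 6 jasmonate genes 1 passed, MYC2, with 0.78 ± 0.20 (adjusted p = 0.0198). Its gene overlaps AT1G32630, and the call was lost without bzip28/60 mock 1, mock 3, Tm 1 or Tm 2 or bzip17/28 mock 3, up to adjusted p = 0.0906.

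The genotypes also differed before treatment, which sets the starting level of every response above. Under mock, 505 genes were higher (4.82%) and 821 lower (7.83%) in bzip28/60 than in bzip17/28. Under Tm, 2040 genes differed (19.5%). Jasmonate genes stood apart under mock, with all 6 tested lower in bzip28/60 and a median of -2.78. MYC2, a master factor of jasmonate signalling, stood at 52.8, 61.6 and 53.2 CPM in bzip28/60 mock and at 220, 248 and 262 CPM in bzip17/28 mock. Of the 25 heat shock genes 12 were lower in bzip28/60 under mock (median -0.85), of the 11 immune genes 7 (median -1.07), and of the 10 oxidative stress genes 6 (median -1.21), while 0 were higher in any of the 3 lists, in edgeR, in DESeq2 or at an unadjusted p under 0.05. Of the 20 UPR panel genes 6 were lower and 2 higher under mock (median -0.49), and 18 differed under Tm. The mock libraries enter each response, so the differences under mock stand beside the interactions and not as separate support.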

How the data were processed

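Transcript abundance was measured by 3'-end mRNA sequencing in whole seedlings, 36 libraries in 12 groups of 3. The deposited files hold whole-number read counts made by the authors with HTSeq 0.6.0 after Trim Galore 0.2.8, TopHat2 2.1.1 and SAMtools, per the submitters' processing notes. Build and strand setting: not given in the sources used here. Overlapping and antisense genes therefore cannot be told apart. Counts of 58699 transcript models were summed to 37336 loci. The 5 summary lines per file were left out. Reads shared by models of a gene were set aside as ambiguous (40.1 to 42.3% of assigned and ambiguous reads in the 12 libraries), so genes with several models are undercounted, and 92.9 to 93.4% of counts came from loci with 1 model. Reads on no feature made up 2.74 to 3.18%.

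All 36 libraries were fitted with edgeR 4.0.16 in R 4.3.3 (group means, TMM factors, filterByExpr with a minimum count of 10, quasi-likelihood F-test with 24 degrees of freedom left), which left 10480 genes. The 5 comparisons use only the 12 libraries in their contrasts, and the others add to the estimate of spread. Among those others, WT Tm varied most between repeats (28.2%). Without the WT Tm libraries the count of genes with an interaction was 381 in place of 258. Benjamini-Hochberg adjustment covered every gene tested (threshold 0.05), and standard errors are the fold change over the square root of F. The fit was tested on simulated data of 10380 genes: for the interaction it recovered 50 and 38% of changes of 1 and -1 on the log2 scale, 96 and 82% of changes of 2 and -2, and 2.92% of its calls were false. Changed genes were drawn from those with a mean of at least 5 CPM over the groups compared. The simulated spread was that of the fit of all 36 libraries.

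Gene symbols came from the TAIR10.1 table (37051 loci found) and promoters from RefSeq TAIR10.1. The members and the 18 gene lists were chosen with earlier results of these data known, so they are not independent of them. Of 286 list loci 199 were tested, and 78 of the 87 others have several models. The lists overlap, with 310 memberships over the 286 loci. Lists are described by counts and medians, with no list test. The rule for named genes took the genotype genes, the UPR panel, the 8 most negative and 8 most positive interactions with a mean of at least 5 CPM in a group and no overlap of Tm and mock in a genotype, the 2 strongest calls per list, the largest rises and falls in bzip28/60 without an interaction, and genes called in opposite directions. Not all are printed. Other list members are named after their values were seen, as examples of the counts. Alternatives were other scaling factors, no filter, DESeq2 1.42.0, the 12 libraries alone, the repeat number as a block, organelle genes left out, loci with 1 model, transcript models as deposited and each library left out. Counting intervals cover counting error only.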

Additional observations from a re-analysis of the deposited data

Results flagged for a closer look

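In 3 genes the response to Tm passed in opposite directions in the 2 mutants and the difference itself was tested and passed. PDIL1-3, a protein disulfide isomerase, had an interaction of -3.191, with a fall of 1.41 in bzip28/60 and a rise of 1.78 in bzip17/28. Its interaction passed in each alternative that could be fitted. PDIL1-3 has 2 transcript models, so the fit of loci with 1 model leaves it out. Reads shared by its models were not counted, and a shift between the models was not tested. CSLE1 had an interaction of 1.444, and its rise in bzip28/60 was lost in 9 of 21 alternatives (adjusted p up to 0.246). MYB13 had an interaction of 1.545, and its rise in bzip28/60 was lost in 3 of 21 (adjusted p up to 0.182). The chance of such pairs among all genes was not tested.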

How the results depend on the processing

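The count of genes with an interaction was 258, and 263 with relative log expression factors, 281 with library size alone, 334 with no filter on low counts (199 higher, 135 lower), 302 with DESeq2, 263 without organelle genes, 238 for loci with 1 model, 255 for transcript models, and 178 to 230 with 1 library left out. Fitting the 12 libraries alone, with 8 residual degrees of freedom, gave 628 genes with an interaction, 603 changed by Tm in bzip28/60 and 1835 changed by Tm in bzip17/28. An alternative chosen after seeing the data, without the 3 WT Tm libraries, gave 381. With 1 library left out, genes changed by Tm ran from 136 to 259 in bzip28/60 and from 858 to 1194 in bzip17/28, and differences between genotypes from 974 to 1356 under mock and from 1472 to 2055 under Tm. No scaling moved the median of all genes by over 0.1 (the largest shift was 0.0715). Of 70 genes followed, the interaction changed sign in 3 that were not called, always with 1 library left out: BZIP17 (from -1.06 to 0.7191), BAG7 (from -0.0499 to 0.1078) and AATP1 (from -0.077 to 0.275). 16 of the genes lost their call in at least 1 alternative and 3 gained one. Deviations of same-numbered samples correlated weakly, at -0.058 to 0.092, and those of other-numbered samples at up to 0.042. Among bzip28/60 mock, bzip17/28 mock and bzip17/28 Tm the same number gave the higher value each time. In pairs with bzip28/60 Tm it never did. The repeat number as a block gave 255 genes with an interaction, 248 of them shared with the 258. The cause of the differences between fits was not tested. The simulation, at these library sizes and 3 repeats, recovered 50% of changes of 1 and 38% of changes of -1, so many interactions of that size would not be called. Its changed genes had a mean of at least 5 CPM and its spread came from all 36 libraries. The rates therefore do not cover genes with fewer counts or the spread of the 12 libraries alone.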
